A study of Sus scrofa with 24 samples.

Results

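The genes described here are those of the cytosolic ribosomal proteins of the pig, taken as every array probe whose gene name in the scanner files is RPL or RPS followed by a digit, RPSA, RPLP0, RPLP1 or RPLP2. The ribosomal S6 kinases, names with a pseudogene suffix and RPS19BP1 were left out. That gave 76 of the 13525 gene names on the array. The names were spread over 277 probes, and each gene was represented by its probe with the highest mean over all arrays. A total of 74 genes had a probe that passed the filter on dim signals, which asked for detection above background in each of the 6 animals for 1 tissue or more, and those 74 were detected on all 24 arrays. The probes named RPL13 and RPS4X did not pass and are given no value here. The probe named RPS4 passed, and its accession is that of RPS4X in RefSeq. The choice used the names and the brightness of the probes, not the differences between tissues.

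The tissues came from 6 crossbred pigs of 10 weeks, untreated, weaned at 28 days and fed freely. From each animal the liver (Liver), the spleen (Spleen), a stretch of jejunum free of Peyer's patches (Jejunum) and a stretch of jejunum that contains them (Peyer) were frozen whole. Each of the 24 RNA samples was hybridised to its own one-colour Agilent array, so every tissue has 6 arrays and an animal number stands for the same pig in all 4 tissues. Values are log2 signals minus the 75th percentile of the array, called log2 levels below. The brightness of a probe also depends on its sequence, so a level is compared between tissues for 1 probe and not between genes.

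A ribosome has a small subunit, which holds the messenger RNA and checks codons, and a large subunit, which joins amino acids and carries a flexible stalk of acidic proteins that recruits translation factors. Its proteins, named RPS for the small and RPL for the large subunit, are needed in nearly equal numbers, and their messages carry a shared oligopyrimidine start through which growth signals set their translation. Lymphoid tissue with dividing cells, renewing gut epithelium and protein-secreting liver all depend on making ribosomes, and mitochondria hold a separate ribosome with its own proteins.

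The probes that stood for each gene are 60 bases long, and a few of them decide how the differences below can be read, so they are shown first. Of the 74 genes, 14 were represented by a probe with a mean log2 level under 3, and almost all 2-fold calls fell among those 14. The probes just under and just over that level were RPL28 at 2.59 and RPLP0 at 3.50. The level of 3 was chosen after the values had been seen. The probe of RPS7, a small-subunit protein, shares 25 bases (capitals) with a probe that the files leave unnamed:
RPS7: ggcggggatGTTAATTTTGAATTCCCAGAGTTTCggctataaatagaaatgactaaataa
unnamed: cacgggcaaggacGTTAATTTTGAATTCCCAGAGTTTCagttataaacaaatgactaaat
The probe of RPS2, another small-subunit protein, runs on the opposite strand to a probe named for the pseudogene RPS2P32, and 23 bases of each (capitals) are the reverse complement of the other:
RPS2: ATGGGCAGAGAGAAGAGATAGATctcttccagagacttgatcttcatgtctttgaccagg
RPS2P32: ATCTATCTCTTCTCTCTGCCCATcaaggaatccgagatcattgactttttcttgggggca
The probe of RPL26, a large-subunit protein, pairs in the same way over 41 bases (capitals) with a probe that the files name MT-2B, the name of a metallothionein:
RPL26: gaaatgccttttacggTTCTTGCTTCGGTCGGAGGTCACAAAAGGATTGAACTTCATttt
MT-2B: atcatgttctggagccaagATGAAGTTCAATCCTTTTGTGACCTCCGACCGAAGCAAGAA
The probe of RPL10L, the copy of RPL10 made from a processed transcript, shares 49 bases (capitals) with one of the probes of RPL10, and the accession the files give for it belongs to RPL10 in RefSeq:
RPL10L: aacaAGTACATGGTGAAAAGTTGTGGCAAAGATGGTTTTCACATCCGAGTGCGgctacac
RPL10: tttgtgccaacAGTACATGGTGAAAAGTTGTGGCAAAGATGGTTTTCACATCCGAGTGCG
The probe of RPL28, a large-subunit protein, holds a run of 27 bases in 2 copies side by side:
RPL28 repeat: aaagcaataaagacaacagtcttctcc
A search for shared runs of at least 20 bases over all probes of the array found an opposite-strand partner for 4 genes, namely RPS2, RPL26, RPS10 and RPS28. For RPS10 and RPS28 the partner was the dim probe, with a mean log2 level of -6.52 and -4.95. For RPS2 and RPL26 the partner was the bright probe, with a mean log2 level of 6.27 and 5.19 against -0.96 and 2.11 for the probe carrying the gene's name. Which strand of RPS2 and RPL26 these probes read was not settled here, so the values under both names are those of the probes and may not be of the genes' messages. Nor was the target of the probe named MT-2B settled, and that name is only the one in the files.

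As a family the ribosomal proteins differed less between tissues than most genes. The range of the 4 tissue means had a median of 0.61 over the 74 genes, against 1.24 over all 11262 genes tested. It was under 1 for 63 of the 74 genes (85.1%), against 39.4% of all genes. The genes compared were not matched for probe brightness: the mean log2 level had a median of 6.71 over the 74 genes and -0.245 over all genes. Among the 74, the 14 dim probes had a median range of 1.21 and the other 60 a median range of 0.58. By the probe that stood for each gene, the most even was RPS6, the small-subunit protein that the S6 kinases phosphorylate, with a range of 0.20. It was followed by RPL34 at 0.25, RPL5 at 0.26, RPL30 at 0.26 and RPL24 at 0.29. RPS6 had log2 levels with lowest, median and highest values of 6.43, 6.62 and 6.88 in Liver, 6.72, 6.79 and 7.01 in Spleen, 6.62, 6.68 and 6.89 in Jejunum and 6.34, 6.82 and 6.93 in Peyer. The 4 tissues overlapped throughout on this probe, which gave 0.11 in Peyer minus Liver and 0.01 in Peyer minus Jejunum. A second RPS6 probe that passed the filter gave 0.69 and 0.41. RPL5, which with RPL11 and the 5S RNA forms a particle that also binds MDM2, had medians of 7.53, 7.57, 7.34 and 7.35 in the same order of tissues. RPL11 had medians of 7.76, 7.85, 7.68 and 7.57. No difference between Spleen and Liver or between Peyer and Jejunum passed the test on the probe that stood for either protein. Over all their passing probes Spleen minus Liver ran from 0.10 to 2.46 for RPL5 (median 0.19) and from 0.18 to 0.90 for RPL11 (median 0.40). The largest ranges were those of RPS7 at 2.10, RPL28 at 1.88, RPL41 at 1.72, RPL37 at 1.44 and RPS19 at 1.34, all measured by dim probes.

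**Figure D1:**
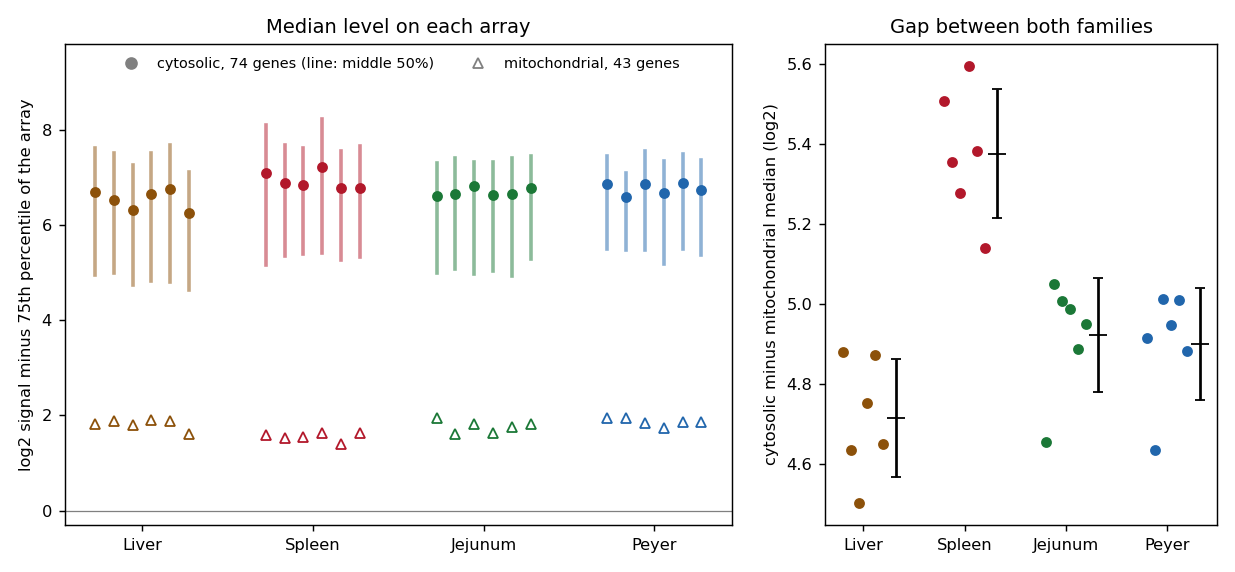
Left, median log2 level (log2 signal minus the 75th percentile of the array) of 74 cytosolic (filled points, lines for the middle 50% of genes) and 43 mitochondrial (open triangles) ribosomal protein genes on each of the 24 arrays; right, the gap between both medians per array, with mean ± SD of 6 arrays per tissue in black. The 6 Spleen arrays, from 5.14 to 5.59, lie above all Liver, Jejunum and Peyer arrays in the gap.

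The mean signal was highest in Spleen for 54 of the 74 genes, in Liver for 11 and in Peyer for 9, and it was highest in Jejunum for 0. It was lowest in Liver for 31, in Peyer for 25 and in Jejunum for 18, and lowest in Spleen for 0. These counts are those of the main scaling, by the 75th percentile, and the effect of others is given further on. The median over the genes, taken on each array, was 6.93 ± 0.18 in Spleen, 6.76 ± 0.12 in Peyer, 6.69 ± 0.09 in Jejunum and 6.53 ± 0.20 in Liver (SD, n = 6). The Spleen arrays ran from 6.78 to 7.22 and the Liver arrays from 6.26 to 6.75, so these did not overlap. The highest Spleen values, 7.22 in animal 71 and 7.10 in animal 68, came from the Spleen arrays with the lowest 75th percentile signals, 275 and 417 units. Within an animal, the median over genes of Spleen minus Liver ran from 0.08 to 0.67. The Peyer arrays, from 6.58 to 6.88, overlapped all other tissues. In whole tissue, fewer cells of a type and less RNA per cell cannot be told apart.

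Spleen and Liver of an animal lay on the same slide, and most ribosomal protein genes were higher in Spleen. Of the 74 genes, 41 were higher and 2 lower at an adjusted p under 0.05, against 38.3% of all genes higher and 31.3% lower (69.6% in either direction). The median log2 difference was 0.41, against 0.09 over all genes. It was 0.41, 0.51 and 0.31 within the 3 slides. Spleen and Liver arrays did not overlap for 21 of the 74 genes, all higher in Spleen, against 49.3% of all genes. The differences were small: 2 of 74 were called at 2-fold, both higher in Spleen, against 20.2% of all genes called higher (38.3% in either direction).

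One of the 2 was RPL13A, a large-subunit protein that can leave the ribosome to silence interferon-induced messages. Its log2 level ran from 4.63 through a median of 5.11 to 5.42 in Liver and from 5.81 through 6.06 to 6.40 in Spleen. All Spleen arrays were above all Liver arrays, and the difference was 1.06 ± 0.14 (SE; adjusted p = 2.7e-07), higher in 6 of 6 animals. Jejunum, with a median of 5.32, and Peyer, with 5.54, lay between them. RPL13A kept the direction within each slide, from 0.88 to 1.30, and stood at 0.95 with median centring, under 2-fold. The other was RPL22L1, a paralogue that can take the place of RPL22 and acts in the development of T cells. Its log2 level ran from -2.94 through -2.58 to -2.37 in Liver and from -1.68 through -1.33 to -1.10 in Spleen, a difference of 1.24 ± 0.30 (SE; adjusted p = 0.00073) with no overlap. With normexp background correction it was 0.74, under 2-fold. RPL22 itself differed by 0.39 ± 0.14 (SE; adjusted p = 0.018), and Liver, from 5.98 to 6.78, overlapped Spleen, from 6.41 to 7.18.

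Just under 2-fold, and named after their values were seen, stood RPS16 at 0.93, RPL36A at 0.90, RPLP0 at 0.89 and RPS4 at 0.87, each higher in Spleen in 6 of 6 animals and without overlap. RPS16 and RPS4 are small-subunit proteins and RPL36A a large-subunit protein, and RPLP0 is the base of the stalk. RPS16 had log2 levels of 4.63, 4.82 and 5.04 (lowest, median, highest) in Liver and 5.65, 5.74 and 5.94 in Spleen. Of the acidic stalk proteins that bind it, RPLP1 differed by 0.41 and RPLP2 by 0.55, and 3 of the 3 stalk genes passed the test. By subunit, 18 of 36 large-subunit genes passed higher and 1 lower, with a median of 0.37. Of 29 small-subunit genes 15 passed higher and 0 lower, with a median of 0.41. The 2 genes lower in Spleen were RPL27A, a large-subunit protein, at -0.40 ± 0.14 (SE; adjusted p = 0.018), and RPL7L1, at -0.32 ± 0.11 (SE; adjusted p = 0.011), both lower in 6 of 6 animals.

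**Figure D2:**
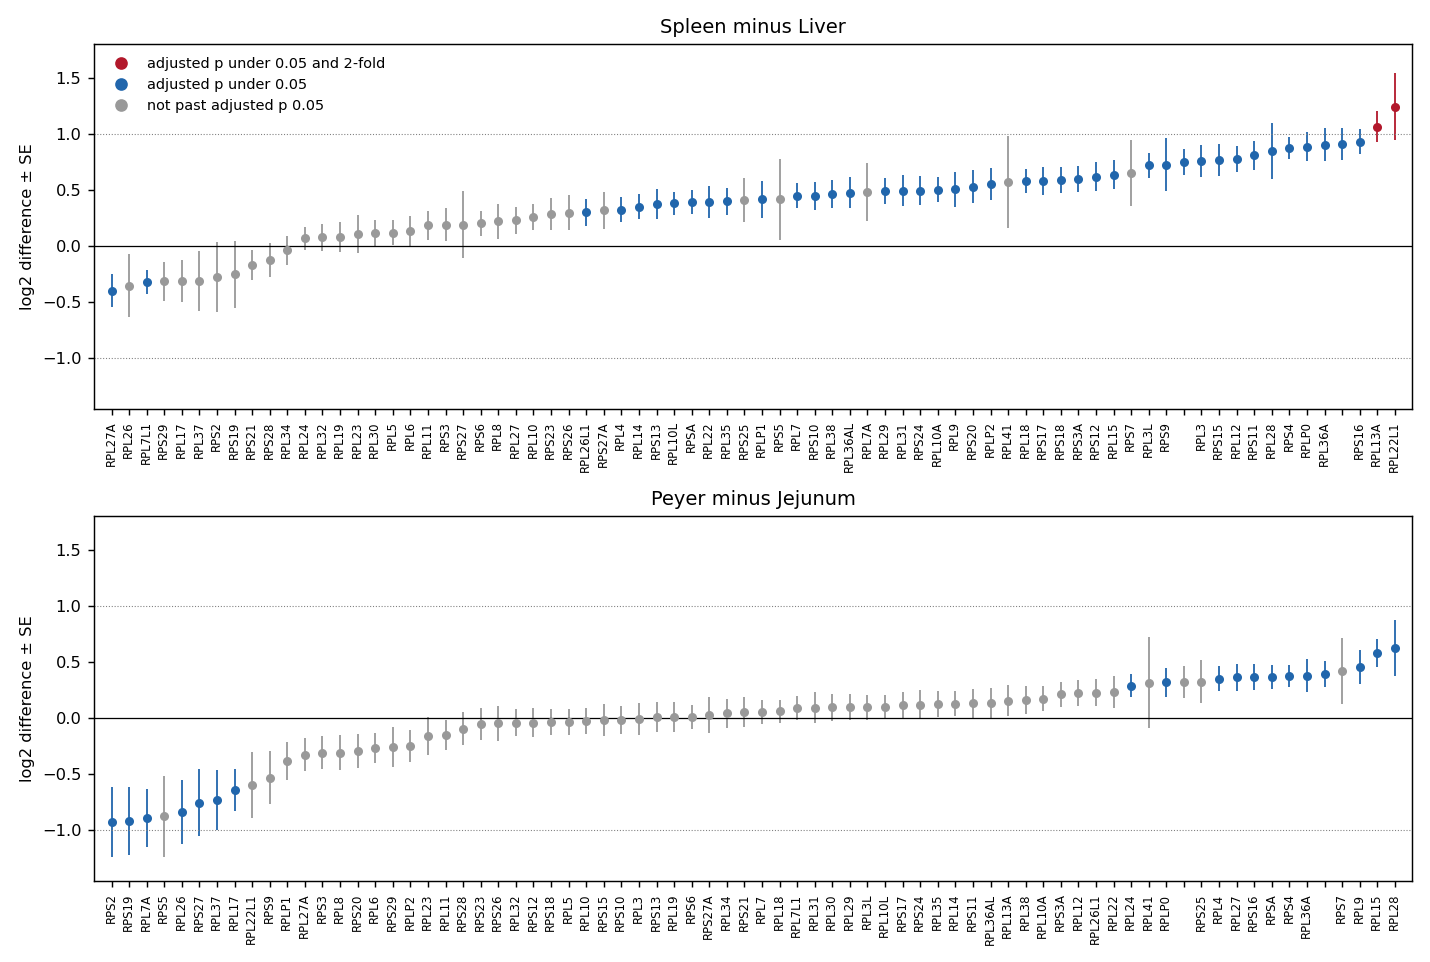
Log2 difference ± SE of each of the 74 genes between the tissues that share slides, Spleen minus Liver above and Peyer minus Jejunum below (6 animals each), with genes ordered by their difference, dotted lines at 2-fold and a few points left without a name. Most points of the upper plot lie above 0, with RPL13A and RPL22L1 past 2-fold, while no gene of the lower plot was called at 2-fold.

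Paralogues are copies that carry the name of a core protein with an added L or L1, and 6 of them passed the filter. Of these 5 were higher and 1 lower in Spleen than in Liver at an adjusted p under 0.05. RPL3L, which in other mammals is the striated-muscle form of RPL3, differed by 0.72 ± 0.11 (SE), with Liver from 6.27 to 6.88 and Spleen from 7.12 to 7.49. Its partner RPL3 differed by 0.76 ± 0.14 (SE), with Liver from 3.53 to 4.30 and Spleen from 4.29 to 5.02. The probes under both names thus moved by like amounts. Whether the probe named RPL3L reads the message of RPL3L was not tested. RPL7L1, a factor of large-subunit assembly rather than a protein of the mature ribosome, went the other way from RPL7. RPL7L1 ran from 4.64 through 4.91 to 5.12 in Liver and from 4.35 through 4.61 to 4.72 in Spleen, whereas RPL7 ran from 6.67 through 7.10 to 7.34 and from 7.34 through 7.51 to 7.67 (difference 0.45 ± 0.11, SE). The probes named RPL10L and RPL10 that share 49 bases differed by 0.38 and 0.43, and the probe that stood for RPL10 itself by 0.26, which did not pass (adjusted p = 0.056). Signal from RPL10 and from RPL10L cannot be told apart on the pair that shares bases. RPL26L1 differed by 0.30 and RPL36AL by 0.48.

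Between Jejunum and Peyer, the pair of gut samples that share slides, no ribosomal protein gene was called at 2-fold in the limma fit, against 5.56% of all genes called higher and 7.55% lower (13.1% in either direction), while 25 had an unadjusted p under 0.05. At an adjusted p under 0.05, 12 of 74 were higher in Peyer and 7 lower, against 18.8% and 25.7% of all genes (44.5% in either direction). The median log2 difference was 0.05, against -0.13 over all genes. The 7 that were lower (RPS2, RPS19, RPL7A, RPL26, RPS27, RPL37 and RPL17) all had dim probes, and 10 of the 12 that were higher had a mean level of at least 3. Among the 60 genes with a level of at least 3, 10 were thus higher and 0 lower.

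The gene with the clearest rise in Peyer was RPL15, a large-subunit protein. It ran from 4.41 through 4.50 to 4.76 in Jejunum and from 4.67 through 5.18 to 5.32 in Peyer, a difference of 0.58 ± 0.13 (SE; adjusted p = 0.0011), higher in 6 of 6 animals although the ranges overlapped. RPS4 differed by 0.37 ± 0.10 (SE) and RPSA by 0.37 ± 0.11 (SE), each higher in 6 of 6 animals. RPSA, a small-subunit protein first known as a laminin receptor, ran from 6.09 through 6.21 to 6.47 in Jejunum and from 6.30 through 6.60 to 6.76 in Peyer. RPS19, a small-subunit protein that is mutated in Diamond-Blackfan anaemia, was lower in Peyer by a difference of -0.92 ± 0.30 (SE; adjusted p = 0.018). Its Peyer values were lowest at -1.73, in animal 69, with the others from -0.17 to 0.66, and they overlapped Jejunum, from 0.58 to 1.21. The RPS19 difference was -1.67 within slide 4, which held animal 69, -0.24 within slide 5 and -0.84 within slide 6.

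The other 4 comparisons set tissues on different slides against each other, so a difference between tissues and a difference between sets of slides cannot be told apart in them. Spleen was again the higher tissue: 40 of 74 genes were higher and 1 lower in Spleen than in Jejunum at an adjusted p under 0.05 (34.9% and 26.5% of all genes, 61.3% in either direction), with a median of 0.36 against 0.14. The arrays of the 2 tissues did not overlap for 32 genes, all higher in Spleen, against 44.3% of all genes. At 2-fold 1 gene was called, RPS7, which was lower in Spleen by a difference of -1.03, against 15.1% of all genes called lower (30.0% in either direction). That call was lost without animal 68, 69 or 70, and in the authors' deposited table the difference was 0.51. Peyer stood lower than Spleen in 42 genes and higher in 3 (34.1% and 22.1% of all genes, 56.2% in either direction), with a median of -0.35 against -0.12. By the authors' deposited table, 6 were lower and 4 higher, with quantile normalization 13 and 3, and with median centring 15 and 8. Of all genes 36.8%, 54.4% and 55.2% passed in either direction under these settings, in the same order. At 2-fold 3 were called higher (RPS7, RPL41 and RPL28) and 4 lower (RPL37, RPL7A, RPS19 and RPS2), against 10.3% and 15.2% of all genes (25.4% in either direction). Without the Peyer array of animal 69 there were 4 calls in place of 7. By the authors' deposited table, 0 of the 74 were called (10.9% of all genes), and RPL28 and RPL41 turned to -0.047 and -0.066. Between Jejunum and Liver 13 were higher and 8 lower in Jejunum (31.3% and 31.8% of all genes, 63.1% in either direction), with a median of 0.01 against -0.02. By the authors' deposited table, 58 were higher and 0 lower, against 40.9% of all genes in either direction. With quantile normalization these were 54 and 1, against 65.1% of all genes. At 2-fold 4 were called higher in Jejunum (RPS7, RPL41, RPL28 and RPL22L1), against 16.8% of all genes called higher (32.7% in either direction). By the authors' deposited table, 0 were called (11.4% of all genes), and RPS7 and RPL41 turned to -0.12 and -0.011.

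Peyer and Liver gave the most 2-fold calls of the 6 comparisons, 4 higher and 4 lower in Peyer, against 40.0% of all genes. At an adjusted p under 0.05, 21 were higher and 17 lower (34.7% and 38.3% of all genes, 72.9% in either direction), with a median of 0.04 against -0.07. By the authors' deposited table, 61 were higher and 1 lower, against 58.5% of all genes in either direction. With quantile normalization these were 60 and 6, against 73% of all genes. RPS7 rose from values of -3.22, -2.70 and -1.46 (lowest, median, highest) in Liver to -1.06, -0.22 and -0.10 in Peyer, a difference of 2.10 ± 0.29 (SE; adjusted p = 1.1e-06). The unnamed probe that shares 25 bases with it stood at 6.96, 7.38 and 7.42 in Liver and 6.75, 7.28 and 7.49 in Peyer, a difference of -0.06 ± 0.14 (SE; adjusted p = 0.74). The difference thus passed the test on the dim probe and did not on the bright one that shares part of its sequence.

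RPL28 rose from 1.16, 1.52 and 2.30 in Liver to 2.81, 3.58 and 3.87 in Peyer, a difference of 1.88 ± 0.25 (SE; adjusted p = 4.4e-07). The files also hold a probe named rpl28 in lower case, which the naming rule did not take in. It stood at 5.45, 5.83 and 6.26 in Liver and 6.08, 6.45 and 6.63 in Peyer, a difference of 0.58 (adjusted p = 0.00071). RPL28 therefore passed the test in Peyer by both probes, with a smaller difference on the bright one. The bright rpl28 probe was highest in Spleen, at 6.70 ± 0.27 (SD, n = 6), and the dim RPL28 probe in Peyer, at 3.48 ± 0.41 (SD, n = 6). RPL41, the smallest protein of the ribosome, rose by 1.72 ± 0.41 (SE; adjusted p = 0.00068), but its Liver values spread from -3.14 to -0.64 and overlapped Peyer, from -1.43 to -0.07. RPLP0 was the 1 gene of these calls with a mean level of at least 3. It ran from 2.46 through 2.91 to 3.06 in Liver and from 3.57 through 3.91 to 4.07 in Peyer, a difference of 1.04 ± 0.13 (SE; adjusted p = 1.5e-07). It came out just under 2-fold without the Peyer array of animal 69, and at 0.97 without animal 75.

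The 4 genes called lower in Peyer than in Liver were RPL37 at -1.44 ± 0.27 (SE), RPS19 at -1.34 ± 0.30 (SE), RPS2 at -1.30 ± 0.31 (SE) and RPL26 at -1.17 ± 0.28 (SE). RPS2 ran from -0.64 through -0.44 to -0.35 in Liver and from -3.75 through -1.48 to -1.03 in Peyer, with the lowest array that of animal 69. Without that Peyer array the difference was -0.91 for RPS2 and -0.82 for RPL26, and the count of 2-fold calls went from 8 to 5, RPLP0 being the other gene under 2-fold. The opposite-strand RPS2P32 probe stood at 6.33, 6.49 and 6.70 in Liver and 6.00, 6.22 and 6.45 in Peyer, a difference of -0.27 (adjusted p = 0.021). For RPL26 the opposite-strand probe named MT-2B stood at 4.76, 5.15 and 5.38 in Liver and 4.97, 5.32 and 5.50 in Peyer, a difference of 0.19 that did not pass the test (adjusted p = 0.12). In the authors' deposited table the differences of RPL37, RPS19, RPS2 and RPL26 were -0.45, -0.45, -0.51 and -0.41, those of RPS7, RPL41, RPL28 and RPLP0 were 0.41, 0.33, 0.96 and 0.89, and none of these 8 reached 2-fold.

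**Figure D3:**
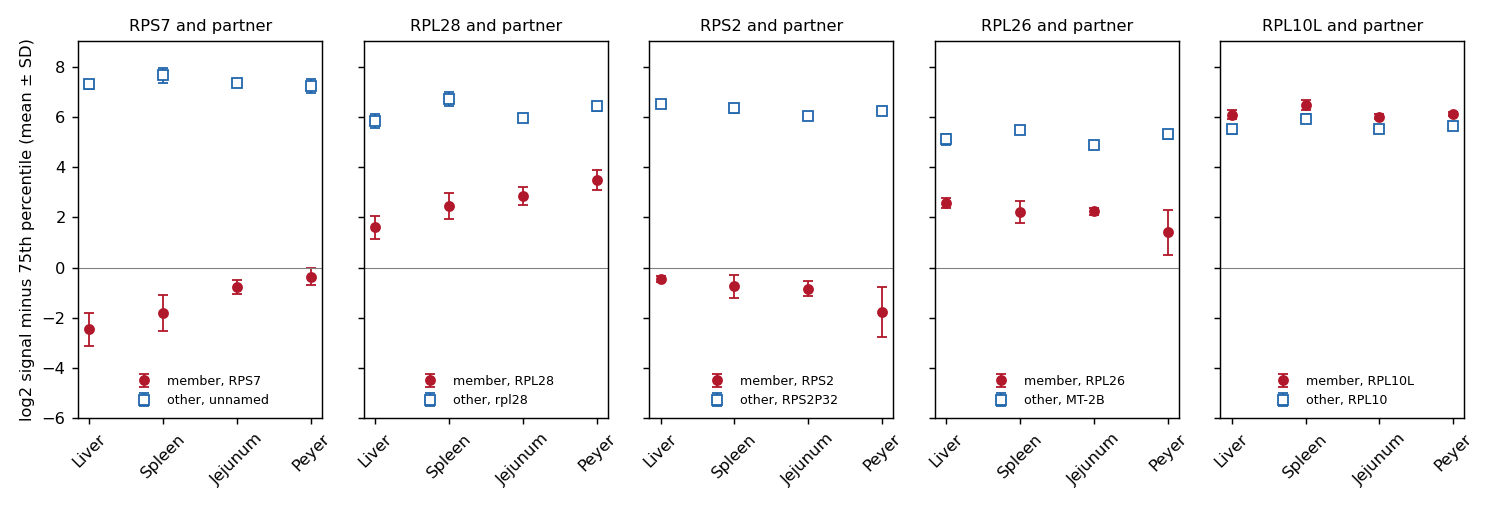
Mean log2 level ± SD (log2 signal minus the 75th percentile, 6 arrays per tissue) of the probe that stood for 5 genes (filled circles) and of a second probe (open squares) that shares bases with it on the same strand (RPS7, RPL10L) or the opposite strand (RPS2, RPL26) or bears the same name in lower case (RPL28). RPS7 rises from -2.46 in Liver to -0.36 in Peyer on the dim probe while the second probe lies between 7.23 and 7.65 in all 4 tissues.

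The differences were also set against probe brightness. Of the 22 gene calls at 2-fold over the 6 comparisons, 20 were on the 14 dim probes and 2 on the other 60, RPL13A in Spleen against Liver and RPLP0 in Peyer against Liver. The range over tissue means had a median of 1.21 for the dim probes and 0.58 for the other 60. Over those 60, the correlation across genes of the mean level with the difference was -0.70 in Peyer minus Jejunum, -0.76 in Peyer minus Spleen, -0.65 in Peyer minus Liver, -0.43 in Jejunum minus Liver, -0.35 in Spleen minus Liver and 0.14 in Spleen minus Jejunum. Over all 74 genes it was 0.36, -0.045, -0.033, -0.35, -0.0062 and 0.53 in the same order, so the relation depends on leaving out the dim probes. Genes share arrays and are not independent, so these values are descriptions. In Peyer against Liver, of 28 genes with levels from 3 to 7 there were 15 higher and 1 lower, and of 32 with levels of 7 or more 3 were higher and 9 lower. The bright RPL27A ran from 8.78 through 8.97 to 9.24 in Liver and from 7.44 through 8.16 to 8.23 in Peyer, a difference of -0.96 ± 0.14 (SE). No member probe was saturated on any array. The part of probe brightness in these differences was not tested.

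**Figure D4:**
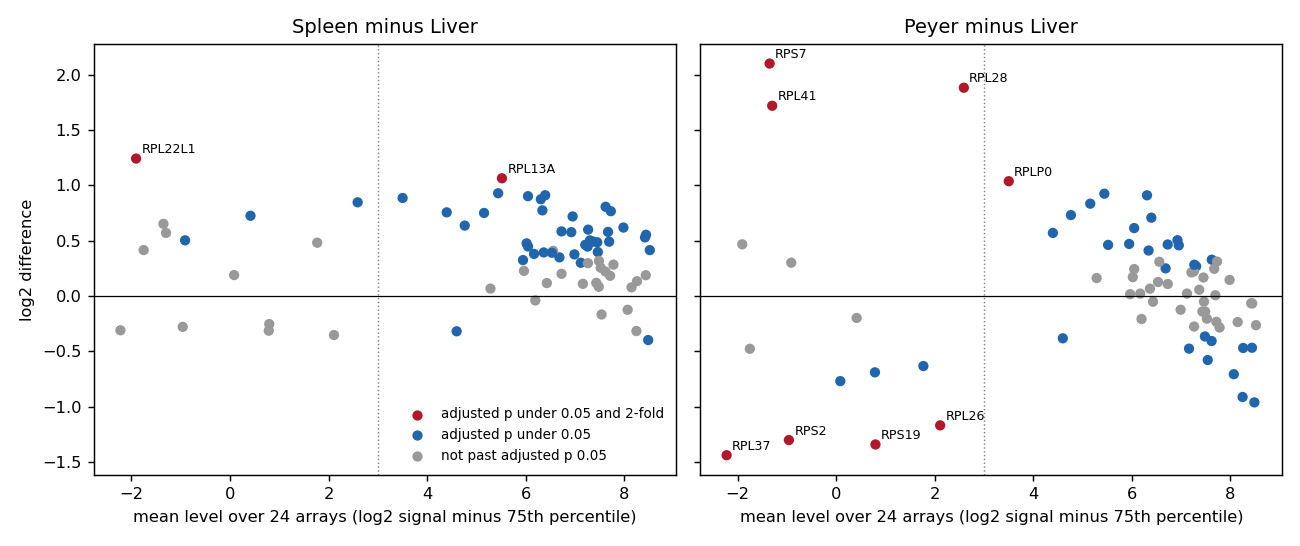
Log2 difference of each of the 74 genes (vertical) against its mean log2 level over the 24 arrays (horizontal) for Spleen minus Liver and Peyer minus Liver, with the dotted line at a level of 3 and names for genes past 2-fold. In Peyer minus Liver the called genes lie left of the line except RPLP0, and of the 32 genes at a level of 7 or more 9 were lower and 3 higher.

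Several probes of a gene gave a check on the choice of 1. For 44 genes 2 or more probes passed the filter, up to 19 for RPL5, and probes of a gene share their target. Over the 269 probes that passed, 175 were higher and 4 lower in Spleen than in Liver at an adjusted p under 0.05, with a median of 0.45. At 2-fold 14 probes of 9 genes were called higher, against 2 genes with 1 probe per gene. In Peyer against Liver 14 probes of 10 genes were called higher and 6 probes of 6 genes lower, against 4 and 4 genes, and in Spleen against Jejunum 2 genes had a probe called higher, against 0. With more probes a gene has more chances of a call, and no such count over all probes was taken. In Peyer against Jejunum 65 were higher and 13 lower, with a median of 0.13. All probes of a gene had the same sign in Spleen minus Liver except in 7 genes, and in Peyer minus Jejunum except in 23. The widest disagreement was in RPL5, where Spleen minus Liver ran from 0.10 to 2.46 over the 19 probes around a median of 0.19. It was followed by RPS16, from 0.93 to 2.99 over 3 probes, and by RPL18, RPS4 and RPL35. Probes with identical 60 bases gave the repeatability: the second copies of RPL11, RPL22, RPL27 and RPL29 differed from the first by at most 0.19 on any array, and by at most 0.07 in any difference between tissues.

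The mitochondrial ribosomal proteins, named MRPL and MRPS, went the opposite way between Spleen and Liver. Of 43 measured, 2 were higher and 31 lower in Spleen at an adjusted p under 0.05, against 38.3% and 31.3% of all genes. Their median was -0.53. At 2-fold 0 were called higher and 4 lower, against 20.2% and 18.1% of all genes. MRPL4 differed by -1.46 ± 0.11 (SE; adjusted p = 3e-11), MRPS18B by -1.37 ± 0.13 (SE) and MRPL49 by -1.15 ± 0.10 (SE). The gap between the cytosolic and the mitochondrial median on the same array does not depend on any constant subtracted from that array. It was 5.38 ± 0.16 in Spleen, 4.92 ± 0.14 in Jejunum, 4.90 ± 0.14 in Peyer and 4.71 ± 0.15 in Liver (SD, n = 6). Spleen, from 5.14 to 5.59, overlapped no other tissue, and Liver, from 4.50 to 4.88, overlapped Jejunum (4.66 to 5.05) and Peyer (4.63 to 5.01). The size of the gap itself depends on the probes, and only its shift between tissues can be read. Between Peyer and Jejunum the mitochondrial genes had 3 higher and 6 lower, against 18.8% and 25.7% of all genes, with a median of -0.00282.

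The scaling between arrays moved the whole family. For Spleen minus Liver its median was 0.41 with the 75th percentile and 0.30 with median centring. It was 0.95 with quantile normalization and 0.70 in the authors' deposited table. With the last 2 scalings 35 and 15 of the 74 genes were called at 2-fold, against 40% and 31.2% of all genes. The sign of the median was the same in all 4. For Peyer minus Liver the values were 0.04, 0.19, 0.82 and 0.69, and for Jejunum minus Liver 0.01, -0.01, 0.45 and 0.49, so with the first 2 scalings the family's median lay near 0. For Peyer minus Spleen they were -0.35, -0.08, -0.12 and 0.0001545. The shift of the cytosolic against the mitochondrial median kept its sign in every comparison under these 4 scalings. It was 0.94, 0.94, 1.28 and 1.01 for Spleen minus Liver and -0.51, -0.51, -0.23 and -0.26 for Peyer minus Spleen. The first 2 scalings each subtract 1 constant per array and give the same shift by construction, so only the last 2 could have changed it.

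**Figure D5:**
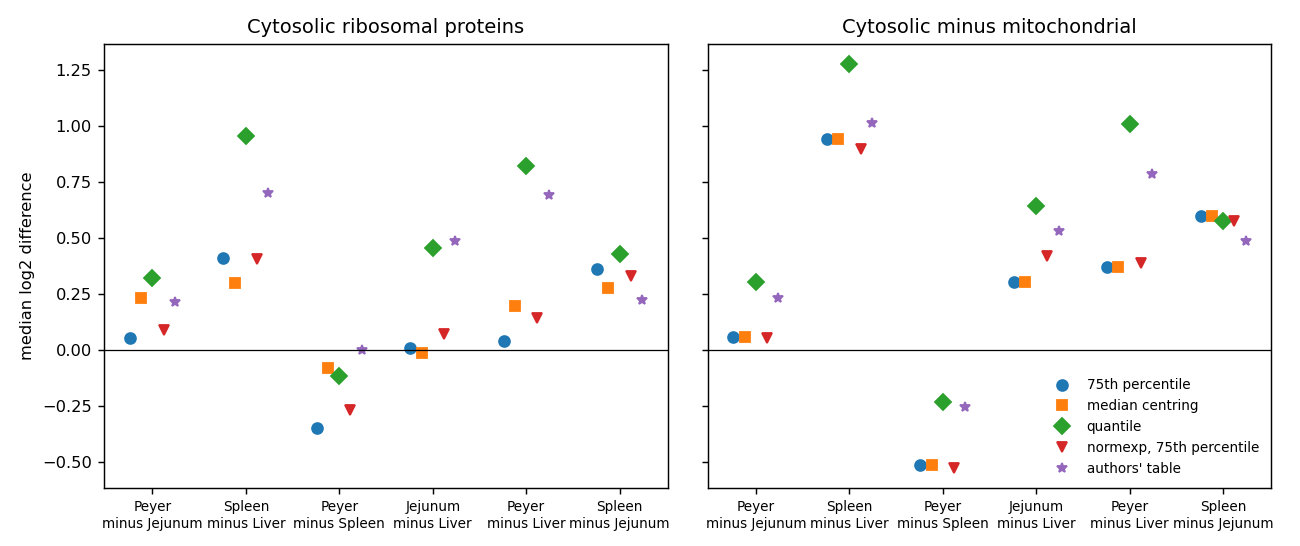
Median log2 difference in the 6 comparisons under 5 ways of scaling the arrays, left for the 74 cytosolic ribosomal protein genes and right for their median minus that of 43 mitochondrial genes. On the left the quantile and authors' values for comparisons with Liver lie between 0.45 and 0.95, above the others, while on the right all 5 settings share a sign in every comparison.

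Measured against the family's own median on each array, the spread within the family differed between comparisons. This measure removes any constant subtracted from an array. It does not remove a scaling that moves bright and dim probes by unlike amounts. In Spleen minus Jejunum 69 of 74 genes lay within 0.5 of the family, in Peyer minus Jejunum 62, in Spleen minus Liver 59 and in Peyer minus Liver 47. The SD of the differences over genes was 0.29 in Spleen minus Jejunum and 0.65 in Peyer minus Liver. On this scale 12 genes stood higher and 17 lower in Spleen minus Liver at an adjusted p under 0.05, with 0 called at 2-fold. Of all genes on the same scale 67.5% passed in either direction and 40.2% were called. In Peyer minus Liver 12 stood higher and 32 lower, with 3 called higher and 7 lower at 2-fold, against 70.5% and 42.6% of all genes. In Jejunum minus Liver 10 stood higher and 27 lower, against 60.4% of all genes in either direction. In Peyer minus Spleen these were 4 and 31, against 50.9%. The same window was not applied to all genes.

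The machinery around the ribosome was read from lists of named genes, whose counts stand against 38.3% of all genes higher and 31.3% lower in Spleen than in Liver, and 18.8% higher and 25.7% lower in Peyer than in Jejunum. Ribosome biogenesis factors, which make and process ribosomal RNA in the nucleolus, had 24 of 40 higher and 1 lower in Spleen than in Liver, with a median of 0.55. MYC, a transcription factor that drives ribosome production, was higher by 2.42 ± 0.17 (SE; adjusted p = 1.3e-11), TCOF1, a nucleolar factor of ribosomal RNA transcription, by 1.49 and TSR1, a factor of small-subunit assembly, by 1.45. In Peyer 19 of 40 were higher than in Jejunum and 0 lower, with a median of 0.39, led by TSR1 at 1.29 and POLR1A, the catalytic subunit of RNA polymerase I, at 1.07. Of 37 initiation factors, which load the ribosome on the message, 17 were higher and 5 lower in Spleen than in Liver. EIF4A1, the helicase of initiation, was higher by 1.18, and EIF3F by 1.12. In Peyer against Jejunum 11 were higher and 4 lower, with EIF4G1, the scaffold of the cap complex, at -1.13 ± 0.31 (SE). Of 9 elongation and release factors 6 were higher and 0 lower in Spleen than in Liver. EEF1A2 was well above background on no Liver array and was at least 2.70-fold higher in Spleen, and EEF1G was higher by 0.54.

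Ribosomal proteins under other names and partners with the same kind of start had 6 of 9 higher and 1 lower in Spleen, with a median of 0.47. Another list joined genes of the mTOR pathway, which controls translation of ribosomal protein messages, with the genes named RPS6K. Of its 16 measured genes 5 were higher and 3 lower, shares no larger than those of all genes (38.3% and 31.3%). RPS6KA1 was higher in Spleen by 2.36 ± 0.13 (SE) and RPS6KA2 lower, at -2.37 ± 0.19 (SE). EEF2K, the kinase that slows elongation, was lower in Spleen, at -1.70 ± 0.17 (SE). In Peyer against Jejunum 1 was higher and 7 lower, among them DEPTOR, an inhibitor of mTOR, at -1.55 and RPTOR, the scaffold of mTOR complex 1, at -1.18.

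Other cell types and dividing cells moved with these comparisons. Cell-cycle genes were higher in Spleen than in Liver in 12 of 13 and in Peyer than in Jejunum in 9 of 13, with medians of 2.07 and 1.14. Their mean log2 level ran from -1.84 to 0.17 over the Liver arrays, 0.24 to 1.46 in Spleen, 0.07 to 0.80 in Jejunum and 0.30 to 1.94 in Peyer. For 5 measured B cell markers it ran from -5.37 to -4.93 in Liver, 0.17 to 0.99 in Spleen, -5.97 to -5.13 in Jejunum and -2.10 to 2.07 in Peyer, and 2 of the 5 were well above background on no Liver array. All 5 B cell markers were higher in Spleen than in Liver and in Peyer than in Jejunum. The 7 smooth muscle markers ran from -0.74 to 0.28 in Liver, 3.79 to 4.81 in Spleen, 4.02 to 5.41 in Jejunum and 1.75 to 5.27 in Peyer, and all 7 were higher in Spleen than in Liver and lower in Peyer than in Jejunum. The part of any of them in the ribosomal protein differences was not tested.

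The labels of Liver and of gut fitted the markers: 8 hepatocyte markers had a mean of 8.83 to 9.06 in Liver and at most 0.51 elsewhere. The 6 enterocyte markers had a mean of 4.52 to 6.65 in both parts of gut and at most -1.16 elsewhere. Neither list separates Peyer from Jejunum. For B cell markers the lowest Peyer array stood at -2.10, against a Peyer median of 1.62 and at most -5.13 in Jejunum. Without the Peyer array of animal 71, 18.4% of all genes were called at 2-fold in Peyer minus Jejunum, against 13.1% with it. The 75th percentile signal of an array ran from 424 to 526 units in Liver, 275 to 1098 in Spleen, 681 to 1001 in Jejunum and 877 to 2262 in Peyer, with Peyer of animal 69 the brightest. The number of arrays, 6 per tissue, limits the precision. The p-values rest on the spread among the arrays of a tissue, pooled over the 4 tissues. That spread joins differences between animals and between arrays, and the main fit does not use the pairing of tissues by animal.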

How the data were processed

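Liver, Spleen, Jejunum and Peyer of 6 pigs were measured on 24 one-colour Agilent arrays, 200 ng of Cy3-labelled RNA each. The deposited scanner files hold each spot's brightness as intensity, background-subtracted by Agilent Feature Extraction 10.10.1.1 per the file headers and not normalized between arrays. The authors' deposited table holds log2 values. The submitters' processing notes name limma for it, with no version given in the sources used here. Its centring is not stated.

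Of 61625 spots 1319 were controls. The other spots, averaged where a probe was repeated, gave 60305 probes, taken as log2 intensity minus the array's 75th percentile, and 42650 well above background on all 6 arrays of a tissue and free of outlier flags were tested. Tissues were compared with limma 3.58.1 in R 4.3.3 (lmFit, eBayes), with tissue as the only term, 24 arrays, 20 residual degrees of freedom and Benjamini-Hochberg adjustment over the tested probes. A 2-fold call needs a log2 difference of 1 or more in size whose adjusted p lies under 0.05. Counts over all genes use 1 probe for each of 11262 names. The fit was tested on simulated data. Sequences come from the scanner files. Of the 76 genes, 34 have a probe accession in the RefSeq table (Sscrofa11.1), 32 under the same symbol, the others being RPL10L and RPS4, listed there as RPL10 and RPS4X.

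The members, lists and tests were chosen with earlier results of these data known. Named are, per comparison, up to 5 genes called in each direction, all paralogues and their partners, RPSA, RPS6, RPS19, RPL5, RPL11, RPL13A and the stalk genes, the 5 widest and 5 narrowest ranges, up to 5 genes whose probes disagree, and up to 3 per pathway list. Other genes were singled out after their values were seen.

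Each slide carried 1 pair of tissues from 1 pair of animals: Spleen with Liver on slides 1 to 3, Peyer with Jejunum on slides 4 to 6. Slide 6 was scanned on another day. Animal numbers pair the arrays, since they mark the same animal. Deviations from tissue means correlated at a mean of 0.17 in 36 same-animal pairs and -0.034 in 180 others. Alternatives covered scaling, background, filter, probe choice, arrays fitted, weights, animal, slide and left-out arrays. Values of some single genes are not reported here.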

Additional observations from a re-analysis of the deposited data

Results flagged for a closer look

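In 29 sets of values (28 named genes and the family median) by 4 tissues, 116 groups of 6 arrays, an array stood apart from the other 5 by more than 0.625 of the group's range in 13. Chance alone gives about 1 in 20. Peyer of animal 69, the array with the brightest 75th percentile, was the low one in 7 of the 13. It stood at 7.02 for RPL11 (others from 7.55), -4.15 for RPL22L1 (others from -2.05), -0.36 for RPL26 (others from 1.52), -0.40 for RPL7A (others from 1.15), -1.73 for RPS19 (others from -0.17), -3.75 for RPS2 (others from -1.63) and -2.10 for RPS27 (others from -0.57). RPL11 aside, these are genes with dim probes.

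Peyer of animal 71 was the low array for RPL41, at -1.43 against -0.45 to -0.07 in the others, and for RPS7, at -1.06 against -0.36 to -0.10. Liver of animal 75 was low for RPL10L, at 5.74 against 6.10 to 6.22. Jejunum of animal 75 was high for RPL7, at 7.30 against 7.18 to 7.22. Liver of animal 68 was low for RPS19, at 1.14 against 1.31 to 1.39. Jejunum of animal 73 was high for RPS27, at 0.59 against 0.04 to 0.23.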

How the results depend on the processing

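Animal as a block changed no count of 2-fold calls (2 for Spleen minus Liver, 8 for Peyer minus Liver, 0 for Peyer minus Jejunum), and slide as a block changed none either. Medians moved with the scaling. Quantile normalization gave 0.45 for Jejunum minus Liver, 0.32 for Peyer minus Jejunum, 0.95 for Spleen minus Liver and 0.82 for Peyer minus Liver. The authors' values gave 0.49, 0.21, 0.70 and 0.69 in that order, and 0.0001545 for Peyer minus Spleen, just above 0. Median centring gave 0.23 for Peyer minus Jejunum.

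Counts of 2-fold calls were as follows, and the causes were not tested. With quantile normalization 40% of all genes were called in Spleen minus Liver and 39.3% in Peyer minus Liver. With the authors' values these shares were 31.2% and 19.3%. Spleen minus Liver (2) gave 1 with median centring and normexp, 35 with quantile normalization, 0 when centred on the family, 15 with the authors' values, 7 within slide 2 and 1 among genes at a level of at least 3. Peyer minus Spleen (7) gave 3 with median centring, normexp, array weights or centring on the family, 4 with quantile normalization and 0 with the authors' values or at levels of at least 3. Jejunum minus Liver (4) gave 2 with normexp and 0 with the authors' values or at levels of at least 3. Peyer minus Liver (8, of which 4 higher and 4 lower) gave 8 higher and 0 lower with the authors' values, 10 with median centring, normexp or centring on the family, 33 with quantile normalization, 5 without Peyer of animal 69 and 1 at levels of at least 3. Spleen minus Jejunum (1) gave 2 when centred on the family and 0 with normexp, the authors' values, array weights or at levels of at least 3. Peyer minus Jejunum (0) gave 1 when centred on the family or without the filter and 3 within slide 4. Leaving out animals or single Peyer arrays gave 0 to 3 for Peyer minus Jejunum, 3 to 10 for Peyer minus Spleen, 5 to 9 for Peyer minus Liver, 4 for Jejunum minus Liver, 0 to 2 for Spleen minus Jejunum and 2 to 3 for Spleen minus Liver. The 3 calls of Peyer minus Jejunum came without animal 70 or 71, Peyer minus Spleen gave 3 without animal 69 and 4 without animal 68, and the call of Spleen minus Jejunum (RPS7) was lost without animal 68, 69 or 70. Without animal 70 or 75 the median turned to -0.0098 or -0.047 in Jejunum minus Liver and to -0.027 or -0.018 in Peyer minus Liver. The level of 3, names in any letter case and the setting without Peyer of animal 69 were added after seeing the data.

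Named genes reversed in 5 cases, all with the authors' values: RPL28 (-0.047) and RPL41 (-0.066) in Peyer minus Spleen, RPL41 (-0.011) and RPS7 (-0.12) in Jejunum minus Liver, and RPS7 (0.51) in Spleen minus Jejunum. Of the other results for named genes 1257 kept direction and side of the threshold, 72 fell under it and 24 passed it. The 14 dim probes are dim beside the other 60 of the family, and all 74 were well above background on all 24 arrays. The part of background signal in their differences was not tested.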

Other observations

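Gene names in lower case fell outside the naming rule, and among them were probes of 2 further ribosomal proteins. The probe named rps14 stood at 6.90 ± 0.21 in Spleen, 6.60 ± 0.09 in Peyer, 6.38 ± 0.11 in Jejunum and 6.26 ± 0.20 in Liver (SD, n = 6), a difference of 0.65 between Spleen and Liver. The probe named Rps27l, a paralogue of RPS27 that is induced by p53, stood at -1.63 ± 0.27, -1.96 ± 0.36, -1.60 ± 0.11 and -1.23 ± 0.28 (SD, n = 6) in the same order, lower in Spleen than in Liver by a difference of -0.39.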
